A study of Mus musculus with 21 samples.

Results

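The BCL2 family is described here by 10 of its genes, chosen by symbol from the 37620 genes of an RNA-seq expression table. They were 4 guardians (Bcl2, Bcl2l1, Bcl2l2 and Mcl1), 2 effectors (Bax and Bak1) and 4 BH3-only genes (Bid, Bad, Bbc3 and Bcl2l11), and each symbol matched 1 row. The RNA came from germ cells enriched from testes of C57BL/6J (B6) males at 12 days post-partum (12 dpp), an age at which the leading germ cells have begun meiosis. The labels name the cells spermatocytes. Testes were digested with collagenase and trypsin, total RNA was extracted from the enriched cells, and its mRNA was sequenced. Of the 12 libraries, 3 belonged to each of 4 sample numbers, namely 186wt, 343wt, 444wt and 456wt. All of them had the same strain, age and preparation, and none was treated, so the labels give no contrast other than the sample number. The study measured these transcripts to relate transcription to the use of recombination hotspots. Its binding and chromatin samples were not analysed here.

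Proteins of the BCL2 family decide whether the outer mitochondrial membrane is opened, the committing step of the intrinsic pathway of apoptosis. BAX and BAK, once activated, form the pores through which cytochrome c escapes, the guardians hold them and their activators in check, and BH3-only proteins carry stress signals by occupying the groove of the guardians or by activating the effectors directly. In the testis a wave of germ cell apoptosis accompanies the first round of spermatogenesis, loss of Bax leaves an excess of early germ cells and male infertility, and loss of Bcl2l2 leads to progressive loss of germ cells and then of Sertoli cells.

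The element the family shares is the BH3 helix, with which one member sits in the groove of another. Its core is given as coding DNA, because it is the stretch that members of all 3 roles have in common. Each run holds 9 codons (27 bases) of a coding transcript of the files' annotation (GENCODE M1 on NCBI build 37), written 5′ to 3′ on the coding strand, and the capitals mark the codon of the first hydrophobic residue of the core and the 2 codons of the small residue and the aspartate after it.
Bcl2: accCTCcgccgggctGGGGATgacttc
Bcl2l1: gcgCTGagagaggcaGGCGATgagttt
Bcl2l2: gccATGcgggctgctGGAGACgagttt
Mcl1: accCTGcggcgcgtgGGCGACggcgtg
Bax: tgtCTCcggcgaattGGAGATgaactg
Bak1: cagCTTgctctcatcGGAGATgatatt
Bid: catCTCgcccaaataGGCGATgagatg
Bad: gagCTCcgaaggatgAGCGATgagttt
Bbc3: cagCTGcggcggatgGCGGACgacctc
Bcl2l11: gagCTGcggcggatcGGAGACgagttc
The core began with leucine in 9 of the 10 members and with methionine in Bcl2l2. The small residue was glycine in 8 members, serine in Bad and alanine in Bbc3. The search pattern had 7 residues (leucine or methionine, then arginine, lysine or alanine, then any pair, then glycine, alanine or serine, then aspartate, then an acidic residue or glycine) and was written to admit the known forms of these members, so that each of them held exactly 1 match is no finding. Of 21918 coding genes searched, 453 (2.07%) held at least 1 match. The core lay late in the proteins of Bad (residue 151 of 204), Bbc3 (141 of 193) and Bcl2l11 (150 of 196), and early in Bcl2l2 (residue 46 of 193).

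The values are FPKM, fragment numbers scaled to transcript length and to library depth, so that levels of different genes can be set side by side. Depth was estimated from the steps between low FPKM values and came to 12.9 M to 18.5 M fragments per library and 183.7 M in all. At that depth Bcl2, the lowest member in FPKM, rested on an estimated 91.7 to 164.8 fragments per library, and Mcl1 on 2201 to 3555. Fragments were estimated only for these members, which have 1 annotated transcript each. Bbc3 has transcripts of 485 to 1814 bp, against 7191 bp for Bcl2, and could rest on fewer fragments than Bcl2. Markers of the labelled spermatocytes were present, with a summed level by sample number of 215 to 358 FPKM for the 8 early meiotic genes found in the table and of 40.7 to 64.9 FPKM for 5 pachytene genes. Those of the preceding stage, 9 spermatogonial genes, summed to 667 to 965 FPKM. The round spermatid list summed to 0.643 to 2.48 FPKM, with Prm2 listed at 0 in all libraries. The preparation also held RNA of somatic type: 10 Sertoli cell genes summed to 2591 to 4612 FPKM (Clu, the secreted chaperone clusterin, being the highest), 5 peritubular myoid genes to 253 to 1112 FPKM, 6 Leydig cell genes to 16.1 to 110.5 FPKM, 6 macrophage genes to 7.64 to 33.3 FPKM, 6 endothelial genes to 17.0 to 39.1 FPKM, 4 erythroid genes to 21.5 to 124.2 FPKM and 5 lymphocyte genes to 1.05 to 1.82 FPKM, with none of these genes at 0 throughout. The members are expressed in many cell types, so each value below is a mixture over the cells of the preparation.

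All 10 members were detected in all 12 libraries, and all 10 passed the filter on low values. Averaging the 3 libraries of a number to 1 replicate, Bax, the effector that moves from the cytosol to mitochondria, was the highest member at 77.8 ± 8.04 FPKM (SD, n = 4), above 95.1% of the 20795 genes that averaged 0.1 FPKM or more and were tested. Next came the short-lived guardian Mcl1 at 49.96 ± 4.78 FPKM and Bcl2l1, which encodes BCL-XL and its pro-apoptotic splice form, at 48.4 ± 1.51 FPKM. These values of Mcl1 and Bcl2l1 did not differ beyond their spread: their ranges overlapped and Mcl1 was the higher in 2 of 4 sample numbers. Bcl2l2, which encodes BCL-W, followed at 32.9 ± 7.74 FPKM.

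The BH3-only genes lay below those 4. Bid, whose protein is cut by caspase 8 and links death receptors to mitochondria, had 17.9 ± 1.46 FPKM (SD, n = 4). Bad, whose protein is held in the cytosol by 14-3-3 proteins when phosphorylated, had 15.8 ± 2.10 FPKM, and Bcl2l11, which encodes BIM, had 14.4 ± 0.948 FPKM. The ranges of Bid and Bad overlapped, as did those of Bad and Bcl2l11. Bak1, the effector that resides on mitochondria, was lower at 6.04 ± 1.202 FPKM, then Bbc3, the Trp53 target that encodes PUMA, at 3.21 ± 0.671 FPKM. Bcl2, the founding guardian, was the lowest at 1.12 ± 0.240 FPKM, and 32.5% of the tested genes were lower. The other neighbours in this order had ranges over the 4 sample numbers that did not overlap. Their means differed by 1.47-fold (Bcl2l1 over Bcl2l2) to 2.86-fold (Bbc3 over Bcl2). This order was a description and was not tested.

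**Figure D1:**
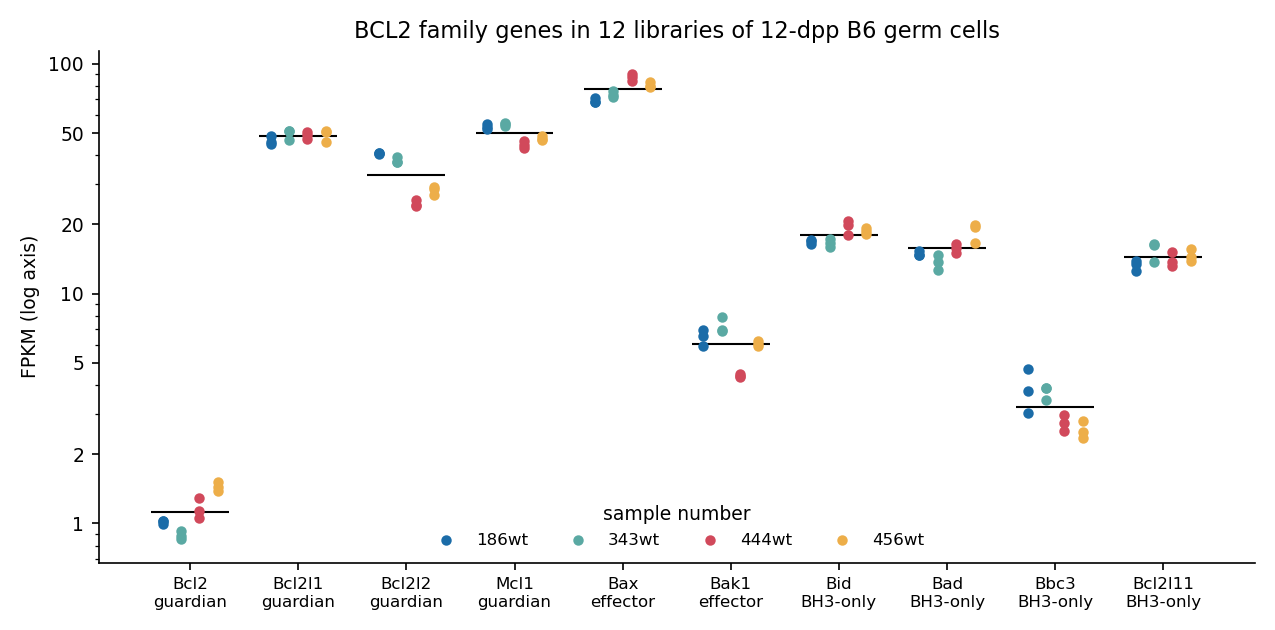
FPKM on a log axis of the 10 members, in order of role, with 1 point per library coloured by sample number (3 libraries each) and a black bar at the mean of the 4 sample numbers. Bax sits highest, at 77.8 FPKM, and Bcl2 lowest, at 1.12 FPKM, while the 12 points of Bcl2l1 lie between 44.66 and 51.08 FPKM.

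Within each role, over the 10 members only, 1 or a few genes carried most of the RNA. Other relatives were not counted in these sums. Among them were the effector-type gene Bok at 28.6 FPKM and the BH3-only genes Bik at 13.5 and Bmf at 10.2 FPKM. Bax made up 92.7 ± 1.89% (SD, n = 4) of the summed FPKM of Bax and Bak1. Among the guardians Mcl1 held 37.7 ± 0.301%, Bcl2l1 36.8 ± 3.79% and Bcl2l2 24.6 ± 3.76%, and Bcl2 held 0.863 ± 0.240%. Bid, Bad and Bcl2l11 shared most of the BH3-only sum with 35.0%, 30.7% and 28.0%, and Bbc3 held 6.32%. Of the sum over the 10 members, 267 ± 4.64 FPKM, guardians took 49.5 ± 3.87%, effectors 31.4 ± 2.93% and BH3-only genes 19.2 ± 1.09%. The family sum spread little between the sample numbers, from 262.7 to 273.7 FPKM, while its make-up moved: guardians held 53.2% of it in 186wt, 52.3% in 343wt, 45.3% in 444wt and 47.0% in 456wt.

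The sample numbers were then compared with limma's moderated F-test on log2(FPKM + 0.1), adjusted over all 20795 genes. The 3 libraries of a number may share 1 RNA or 1 pool of animals, which the labels do not say, so the p-values measure only the spread between libraries, which may be technical, and the test compares these 4 samples and no condition. In such bulk samples fewer cells of a type and less RNA per cell cannot be told apart. Of the 10 members, 8 were called at an adjusted p under 0.05, against 58.2% of all genes tested and 77.6% of the 14348 genes that averaged 1 FPKM or more. Calls were common throughout the table. Some called differences had a range of over 0.5 on the log2 scale between the highest and the lowest sample number. This held for 4 members (Bcl2, Bcl2l2, Bak1 and Bbc3), against 30.2% of genes tested. Of the 14348 genes at 1 FPKM or more, it held for 5084. In 8 members the libraries of the highest number did not overlap those of the lowest, against 75.6% of genes tested. The median range of the members was 0.39, below the median of 0.55 over all genes tested and near the 0.42 over genes at 1 FPKM or more. No sample number was high for all called members, since each of the 4 was the highest for 2 of them. Of all genes called, 15.7% were highest in 186wt, 18.9% in 343wt, 37.4% in 444wt and 28% in 456wt.

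Among the guardians, Bcl2l2 (ENSMUSG00000089682, chr14:55502214-55507071, plus strand, NCBI build 37) had the largest range of the 10 members. Its FPKM were 40.83, 40.49 and 41.06 in the libraries of 186wt, 37.55, 39.18 and 37.50 in 343wt, 25.64, 24.10 and 24.18 in 444wt, and 28.56, 29.07 and 26.92 in 456wt. No library of one sample number overlapped those of another, and 186wt and 343wt were the high ones. From 444wt to 186wt it rose by 0.73 ± 0.036 (log2, SE), a 1.65-fold difference (limma adjusted p = 2.73e-08). The summed Sertoli cell markers split the samples alike, at 4466 FPKM in 186wt and 4612 in 343wt against 2591 in 444wt and 2747 in 456wt, with 10 of 10 genes called and each highest in 186wt or 343wt. Their part in the Bcl2l2 values was not tested. Bcl2l2 shares its locus and strand with Gm20521, a protein-coding model that begins within the gene and ends beyond it, so the division of reads between them is uncertain. Gm20521 had 9.15, 5.68, 5.59 and 2.74 FPKM in 186wt, 343wt, 444wt and 456wt, and the sum of both was 49.9, 43.8, 30.2 and 30.9 FPKM.

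Mcl1 (ENSMUSG00000038612, chr3:95462643-95467099, plus strand), a gene with 1 annotated transcript of 3485 bp, was also high in 186wt and 343wt, within a narrower range. Its libraries read 54.85, 52.13 and 53.14 FPKM in 186wt, 54.86, 53.52 and 55.26 in 343wt, 43.23, 46.18 and 44.27 in 444wt, and 48.30, 47.02 and 46.73 in 456wt. The first pair of numbers overlapped, and all 6 of their libraries lay above the other 6. From 444wt to 343wt Mcl1 rose by 0.29 ± 0.030 (log2, SE), or 1.22-fold (limma adjusted p = 1.29e-05). The Sertoli cell sums given above were also highest in 343wt and lowest in 444wt. So were the Leydig sums, at 110.5 against 16.1 FPKM, and the macrophage sums, at 33.3 against 7.64 FPKM. The part of all these cells in the Mcl1 values was not tested.

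Bcl2l1 (ENSMUSG00000007659, chr2:152593052-152657464, minus strand) did not pass the test. Its libraries lay between 44.66 and 51.08 FPKM, those of the 4 sample numbers overlapped in every pair, and the range between numbers was 0.10 ± 0.051 (log2, SE; limma adjusted p = 0.318). The table gives 1 value per gene, so the BCL-XL and the short pro-apoptotic splice forms of its 10 annotated transcripts are not separated.

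Bcl2 (ENSMUSG00000057329, chr1:108434755-108610851, minus strand; 1 transcript of 7191 bp) was low but measured in each library. It had 1.02, 1.02 and 0.99 FPKM in 186wt, 0.85, 0.88 and 0.93 in 343wt, 1.29, 1.13 and 1.05 in 444wt, and 1.44, 1.38 and 1.51 in 456wt. The libraries of the 4 numbers did not overlap, 456wt being the highest and 343wt the lowest. All libraries of 186wt and 343wt (0.85 to 1.02 FPKM) lay below those of 444wt and 456wt (1.05 to 1.51 FPKM). This is the split seen in Bcl2l2 and Mcl1, in the opposite direction. From 343wt to 456wt Bcl2 rose by 0.65 ± 0.124 (log2, SE), or 1.56-fold (limma adjusted p = 0.00462). It rested on 456wt: without that number the range was 0.35 and the adjusted p 0.152. The pseudocount weighs on a gene at this level, and with a pseudocount of 1 the range was 0.37 (adjusted p = 0.0031). The myoid markers had the same extremes, at 1112 FPKM in 456wt and 253 in 343wt with 5 of 5 genes highest in 456wt. The pachytene sum had these extremes too, at 64.9 FPKM in 456wt and 40.7 in 343wt, with 4 of 5 genes highest in 456wt. Its low in 343wt followed Hspa2, the highest gene of the list at 36.8 FPKM, which was itself highest in 186wt. Ldhc and Piwil1 were lowest in 444wt. Endothelial genes were highest in 456wt as well, 6 of 6, with their lowest sum in 444wt. Their part in the Bcl2 values was not tested.

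Of the effectors, Bax (ENSMUSG00000003873, chr7:52717065-52722268, minus strand) ran opposite to Bcl2l2 and Mcl1. Its libraries had 67.91, 68.24 and 70.79 FPKM in 186wt, 71.39, 73.34 and 76.45 in 343wt, 83.89, 90.32 and 87.45 in 444wt, and 83.76, 80.48 and 79.09 in 456wt. No library of a number overlapped those of another, and 444wt was the highest. From 186wt to 444wt Bax rose by 0.34 ± 0.035 (log2, SE), or 1.26-fold (limma adjusted p = 2.66e-05). Spermatogonial markers were highest in 444wt too, 8 of 9 genes, and summed to 965 FPKM there against 667 in 186wt, 707 in 343wt and 840 in 456wt. Early meiotic markers were highest in 444wt in 8 of 8 genes, with a sum of 358 FPKM against 281, 215 and 250. Their part in the Bax values was not tested.

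Bak1 (ENSMUSG00000057789, chr17:27156755-27165954, minus strand) moved the other way from Bax in 444wt. It had 6.92, 5.91 and 6.53 FPKM in the libraries of 186wt, 6.84, 7.94 and 6.97 in 343wt, 4.39, 4.46 and 4.34 in 444wt, and 6.04, 6.22 and 5.93 in 456wt. The libraries of 444wt were below all 9 others, which overlapped in part. From 444wt to 343wt Bak1 rose by 0.71 ± 0.073 (log2, SE), or 1.63-fold (limma adjusted p = 3.89e-05). It rested on 444wt: without it the range of the other 3 numbers was 0.25 and the adjusted p 0.0622. Leydig and macrophage markers were lowest in 444wt, at 16.1 and 7.64 FPKM, and highest in 343wt, at 110.5 and 33.3 FPKM, with 6 of 6 and 5 of 6 genes highest in 343wt. The Sertoli cell sums had these extremes too, at 4612 FPKM in 343wt and 2591 in 444wt, with 5 of 10 genes highest in 343wt. The part of all these cells in the Bak1 values was not tested. Bak1 overlaps Ggnbp1 on the opposite strand (7.39 FPKM), and no strand setting is given in the sources used here, so reads of either gene could count for the other.

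Among the 4 BH3-only members, Bbc3 (ENSMUSG00000002083, chr7:16894965-16903554, plus strand) had the largest range. Its libraries had 3.77, 4.71 and 3.03 FPKM in 186wt, 3.90, 3.44 and 3.88 in 343wt, 2.53, 2.95 and 2.72 in 444wt, and 2.78, 2.49 and 2.35 in 456wt. The libraries within a number spread more than for other members, with a coefficient of variation of 14.5%, yet all 6 of 186wt and 343wt were above the other 6. From 456wt to 186wt Bbc3 rose by 0.56 ± 0.141 (log2, SE), or 1.47-fold (limma adjusted p = 0.00756). These are also the samples with the higher Sertoli cell sums given above, whose part in the Bbc3 values was not tested.

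Bad (ENSMUSG00000024959, chr19:7016351-7026388, plus strand) was highest in 456wt. It had 14.77, 14.77 and 15.38 FPKM in 186wt, 12.68, 13.79 and 14.72 in 343wt, 15.77, 14.95 and 16.41 in 444wt, and 19.42, 19.92 and 16.66 in 456wt. All 3 libraries of 456wt exceeded the other 9. From 343wt to 456wt Bad rose by 0.44 ± 0.072 (log2, SE), or 1.36-fold (limma adjusted p = 0.00163). It too rested on 456wt, the number with the highest pachytene, myoid, endothelial and erythroid sums, and without it the range was 0.19 and the adjusted p 0.0521. Their part in the Bad values was not tested, and Gpr137 on the opposite strand overlaps the start of the gene (15.1 FPKM).

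Bid (ENSMUSG00000004446, chr6:120841948-120866871, minus strand) changed least among the called members. Its libraries lay between 15.95 and 17.30 FPKM in 186wt and 343wt together and between 18.05 and 20.78 FPKM in 444wt and 456wt together, with no overlap. From 343wt to 444wt Bid rose by 0.23 ± 0.052 (log2, SE), or 1.17-fold (limma adjusted p = 0.00453). The early meiotic sum had the same extremes, at 215 FPKM in 343wt and 358 in 444wt, but was lower in 456wt (250) than in 186wt (281). Spermatogonial markers were also highest in 444wt, at 965 FPKM, and lowest in 186wt, at 667 FPKM. The part of these cells in the Bid values was not tested. The 3′ end of Bid overlaps Bcl2l13 on the opposite strand (10.4 FPKM).

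Bcl2l11 (ENSMUSG00000027381, chr2:127951774-127988283, plus strand) did not pass the test. Its libraries ranged from 12.48 to 16.50 FPKM, every pair of numbers overlapped, and the range was 0.22 ± 0.080 (log2, SE; limma adjusted p = 0.138). The outcome depended on 1 library: without replicate 2 of 343wt, at 13.77 FPKM against 16.50 and 16.34 in its fellows, the range was 0.30 and the adjusted p 0.0236.

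**Figure D2:**
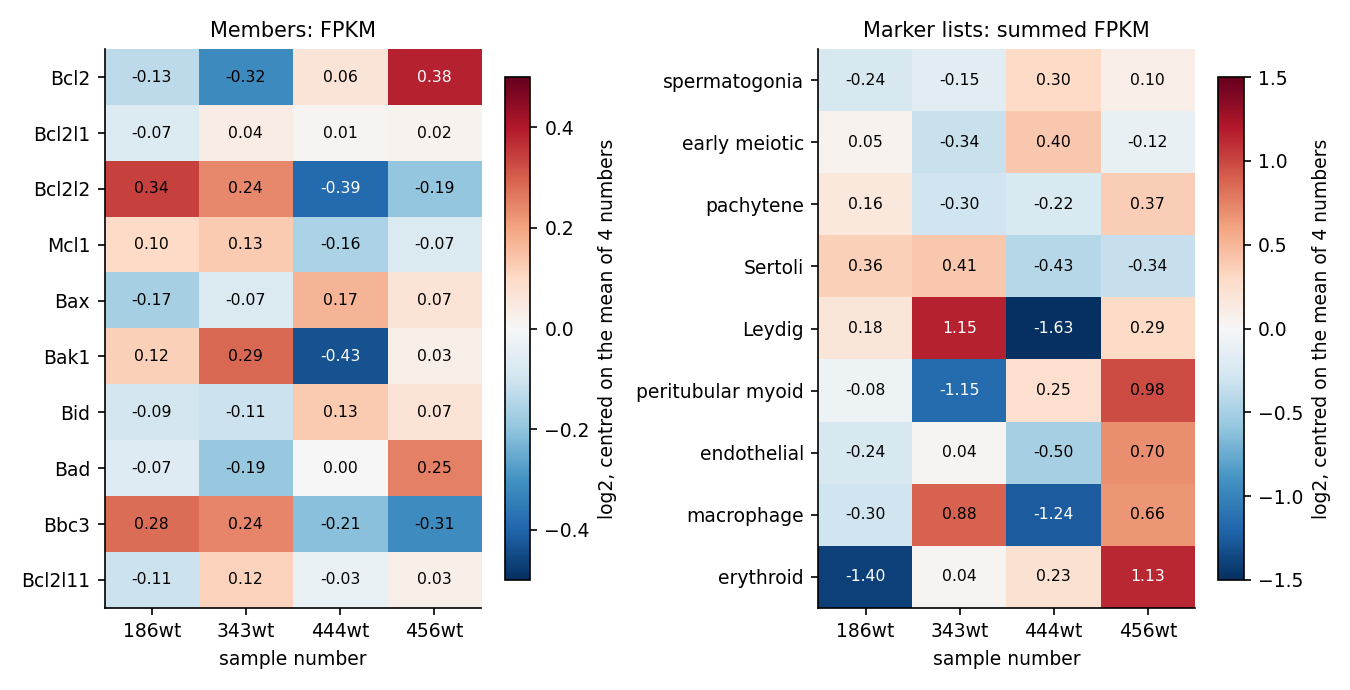
Log2 FPKM of the 10 members (left) and log2 summed FPKM of 9 cell type marker lists (right) in the 4 sample numbers, each row centred on its own mean, with different colour scales. Bcl2l2, Mcl1, Bak1 and Bbc3 are above their means in 186wt and 343wt, as is the Sertoli list (0.36 and 0.41). Bcl2, Bax, Bid and Bad are below theirs.

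Ratios of summed FPKM within a library do not depend on how libraries are scaled. The effector to guardian ratio, (Bax + Bak1) over the 4 guardians, averaged 0.640 ± 0.110 (SD, n = 4). By sample number it was 0.534 in 186wt, 0.566 in 343wt, 0.769 in 444wt and 0.692 in 456wt. All libraries of 444wt and 456wt (0.674 to 0.801) were above those of 186wt and 343wt (0.526 to 0.594), a spread of 0.53 on the log2 scale or 1.44-fold. An exact permutation test of the F statistic, which has no direction, was run over the 15400 assignments of libraries to sample numbers. This permutation test gave p = 6.49e-05, the smallest it can give, and 0.000195 after adjustment over 3 ratios. Libraries were permuted, and those of a number may share 1 RNA. The p-values of the ratios therefore measure only the spread between libraries, as those of limma do.

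The BH3-only to guardian ratio, over the 4 members of each role, was 0.391 ± 0.0512 (SD, n = 4) and was likewise lower in 186wt and 343wt. It was 0.346 in 186wt, 0.347 in 343wt, 0.437 in 444wt and 0.434 in 456wt, 1.26-fold between the extremes (exact permutation p = 0.00584, adjusted p = 0.00584). The first pair of numbers overlapped, and so did the second.

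The Bax to Bak1 ratio compares the effectors with each other. It was 10.7 in 186wt, 10.2 in 343wt, 19.8 in 444wt and 13.4 in 456wt, a 1.95-fold spread (exact permutation p = 0.00039, adjusted p = 0.000584). The high value of 444wt joined the highest Bax to the lowest Bak1, and without 444wt the spread fell from 0.96 to 0.39 on the log2 scale. Since the ratios were formed from the members described above, they are not independent of them. Sertoli cell sums were high where the first pair of ratios was low, and the part of the mixture of cells in the ratios was not tested.

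**Figure D3:**
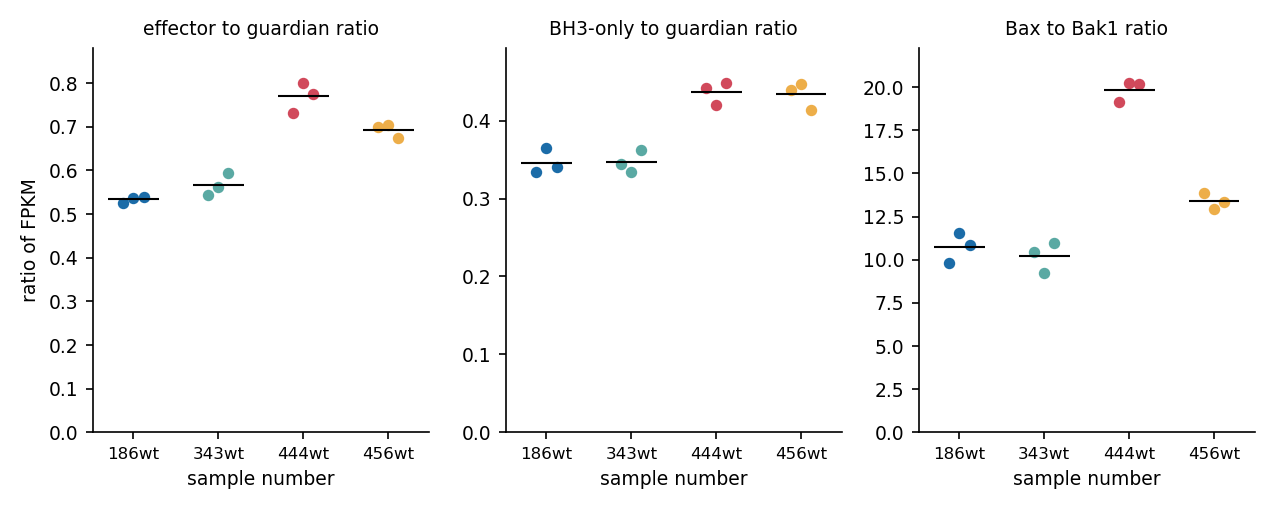
Ratios of FPKM in each library (points, coloured by sample number) with the mean of each sample number (bars), on linear axes from 0. The effector to guardian ratio is 0.769 in 444wt and 0.534 in 186wt, and the Bax to Bak1 ratio is 19.8 in 444wt against 10.2 to 13.4 elsewhere.

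The other genes of the pathway were taken from 5 lists with 63 genes, of which 57 averaged 0.1 FPKM or more. In the same fit 50 of these 57 (87.7%) were called, against 58.2% of all genes tested and 77.6% of genes at 1 FPKM or more. Of the 57, 18 were called with a range of over 0.5, against 30.2% of all genes tested. Their median range, 0.38, was close to that of the 10 members. Of the 50, 23 were highest in 343wt, 13 in 444wt and 7 in each of 186wt and 456wt, while over all genes called 18.9% were highest in 343wt and 37.4% in 444wt.

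The other BCL2 family list held 19 genes, of which 13 were tested. Of these 10 were called, against 58.2% of all genes tested and 77.6% at 1 FPKM or more. Its highest genes were Bnip3l, a receptor for the removal of mitochondria by autophagy (163 ± 13.7 FPKM, SD, n = 4), and Becn1, the autophagy initiator whose BH3 domain binds BCL2 (88.7 ± 3.35 FPKM). Both means exceeded that of Bax. The largest called range was that of Hrk, a BH3-only gene, with 1.67 FPKM in 186wt, 2.90 in 343wt, 1.75 in 444wt and 0.727 in 456wt. From 456wt to 343wt Hrk rose by 1.87 ± 0.134 (log2, SE; limma adjusted p = 2.17e-06), more than any of the 10 members.

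Of the apoptosome and caspases, 13 of 14 genes were called, against 58.2% of all genes tested and 77.6% at 1 FPKM or more. The highest was Diablo, the mitochondrial antagonist of inhibitors of apoptosis, at 78.6 ± 6.93 FPKM (SD, n = 4), close to the mean of Bax. Somatic cytochrome c, Cycs, came next at 48.3 ± 13.2 FPKM and also had the largest range. It had 54.6 FPKM in 186wt, 63.4 in 343wt, 40.8 in 444wt and 34.2 in 456wt, a difference of 0.89 ± 0.034 (log2, SE) between the extremes (limma adjusted p = 5.40e-09). Cycs has many processed pseudogenes, so its value is less certain than that of a single-copy gene.

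All 10 death receptor genes were tested. Of them 8 were called, against 58.2% of all genes tested and 77.6% of those at 1 FPKM or more. A called range over 0.5 was found in 7, against 30.2% of all genes tested and 5084 of the 14348 at 1 FPKM or more. The list had the largest median range of the 5, 0.61. Tnfrsf1a, the main receptor of tumour necrosis factor, was its highest gene at 39.9 ± 7.37 FPKM (SD, n = 4), followed by Cflar, the inhibitor of caspase 8, at 17.0 ± 2.03 FPKM. The largest called range was that of the ligand Tnfsf10, at 0.387 ± 0.133 FPKM, with 0.85 ± 0.254 on the log2 scale (SE, limma adjusted p = 0.0411). Fasl averaged 0.128 FPKM and did not pass the test.

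Among transcription regulators of the family, 8 of 9 were called, against 58.2% of all genes tested and 77.6% at 1 FPKM or more. Trp53 was the highest at 45.8 ± 2.10 FPKM (SD, n = 4), with a small range of 0.14 (log2). Foxo3, a known activator of Bcl2l11 and Bbc3, followed at 44.2 ± 5.51 FPKM. Its range of 0.35 was the median of the list. The largest called range was that of Trp63, known for its role in the death of damaged oocytes, which had 0.287 FPKM in 343wt and 0.817 in 456wt, a difference of 1.23 ± 0.221 (log2, SE; limma adjusted p = 0.0036).

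All 11 protein partners were tested and called, against 58.2% of all genes tested and 77.6% of those at 1 FPKM or more. Dynll1, a dynein light chain that tethers BIM, was the highest gene of the 5 lists at 291.5 ± 30.1 FPKM (SD, n = 4), and Ywhaq, one of the 14-3-3 proteins that hold phosphorylated BAD, followed in its list at 259 ± 9.05 FPKM. The largest range in the list was that of Vdac1, the pore of the outer mitochondrial membrane, with 89.7, 96.7, 62.4 and 73.3 FPKM in 186wt, 343wt, 444wt and 456wt. The difference between 343wt and 444wt was 0.63 ± 0.023 (log2, SE; limma adjusted p = 3.22e-09).

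**Figure D4:**
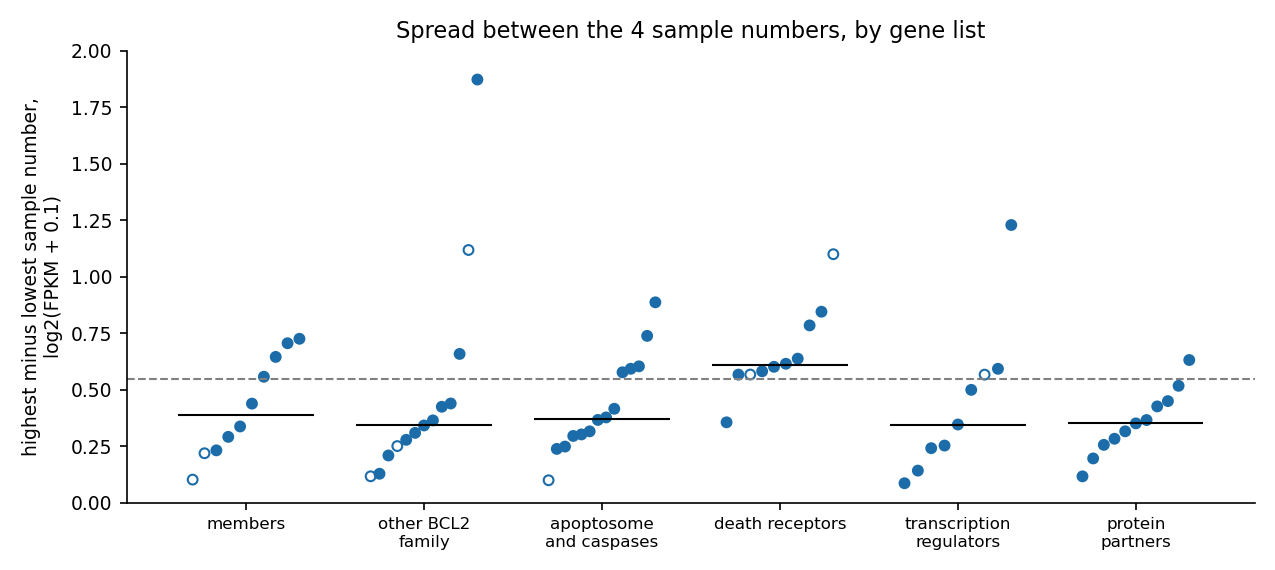
Difference between the highest and the lowest sample number in log2(FPKM + 0.1), 1 point per tested gene, for the 10 members and the 5 pathway lists. Filled points passed the limma test, open points did not, black bars are list medians (0.39 for members, 0.61 for death receptors) and the dashed line is the median of all 20795 genes tested, 0.55.

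For the 2 members with the largest ranges, the genes whose 4 sample means lay nearest were found among 14347 other genes at 1 FPKM or more, by the root mean square difference of centred log2(FPKM + 0.1). Nearest to Bcl2l2 were Mfap3 (0.0157), Acsl4 (0.0187) and Tmc6 (0.0202). Nearest to Bak1 were Pink1 (0.0169), Leprel4 (0.0170) and Ano6 (0.0257). With only 4 points and so many genes compared, near matches are common, and the likeness is a description of these samples.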

How the data were processed

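RNA-seq of 12 libraries was used. The authors aligned 100-bp paired-end reads to the transcriptome of NCBI build 37 with BowTie 0.12.9, removed reads with 2 or more mismatches, computed gene values with RSEM 1.2.8 (fragment length 280 ± 50 bp) and deposited FPKM rounded to 2 decimals. A strand setting is not given in the sources used here. RSEM divides reads among transcripts they match equally well, so values of overlapping genes and near-identical copies are less certain.

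FPKM are not counts, so log2(FPKM + 0.1) of each gene averaging 0.1 FPKM or more was fitted with limma 3.58.1 (R 4.3.3; moderated F-test, trend, Benjamini-Hochberg over all genes; tested on simulated data). The scale understates changes of low genes. SE is that of the difference between the extreme numbers. Ratios were tested by exact permutation. Depth was estimated from the steps of low FPKM in 779 short single-transcript genes, and depth figures cover counting error only. Positions and coding sequences were taken from GENCODE M1. The tests compared the 4 sample numbers. Alternatives were other pseudocounts, filters and scalings, the replicate block, and each number or library left out.

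The members and lists were chosen with earlier results of these data known. All 10 members are named. From each pathway list the 2 highest genes and the called gene with the largest range are named, together with the 3 genes most like each of the 2 members with the largest range, and Fasl, which was chosen after its values were seen.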

Additional observations from a re-analysis of the deposited data

How the results depend on the processing

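The number of called members was 8 under each pseudocount, filter and scaling tried. It was 6 without sample number 456wt, 7 without 444wt, and 8 to 9 with 1 library left out. The genes called over the whole table numbered 9848 to 12146, and called pathway genes 40 to 50. In 3 members the call was lost: Bcl2 without 456wt (range 0.35), Bak1 without 444wt (0.25) and Bad without 456wt (0.19). In 1 it was gained: Bcl2l11 without replicate 2 of 343wt (0.30). The cause was not tested. All 54 recomputed ratio spreads kept an adjusted p under 0.05 in the permutation tests, but the Bax to Bak1 spread fell from 0.96 to 0.39 without 444wt. A spread is never negative, so these settings could not show a change of direction. All 70 recomputed levels stayed within 1 SD of the main value, which such small changes of the mean make likely beforehand. Rescaling libraries to a common median shifted them by at most 0.07 (log2) against each other, and then Bbc3 was highest in 343wt and Bid lowest in 186wt.

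The libraries of the 4 sample numbers share the numbers 1 to 3, and a fit with the library number as a replicate block called 8 members, 11774 genes and 47 pathway genes. Deviations of libraries with the same number correlated between -0.0407 and 0.0299 over 18 pairs, 2 of 12 libraries correlated best with their own number, and nothing in the labels pairs them.

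Depth limits the low members: for Bcl2 the counting error is an estimated 9.30% per library, against a coefficient of variation of 6.46% among libraries of a number. A zero over all libraries allows up to 0.0163 FPKM for a transcript of 1 kb.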

Other observations

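Beyond the genes named above, other relatives of the family were as abundant as some of its core members (genes chosen after their values were seen). Bok, the other effector-type gene, had 28.6 ± 1.87 FPKM (SD, n = 4), with 27.6 in 186wt, 31.3 in 343wt, 27.1 in 444wt and 28.6 in 456wt. It was higher than Bak1 (6.04 ± 1.202 FPKM) in all 4 sample numbers, and its difference between 444wt and 343wt was 0.21 ± 0.051 (log2, SE; limma adjusted p = 0.0175). Of the other BH3-only genes, Bik had 13.5 ± 2.07 FPKM, Bmf 10.2 ± 1.88 FPKM and Pmaip1, which encodes NOXA, 4.09 ± 0.468 FPKM, all with means above that of Bbc3 (3.21 ± 0.671 FPKM), although Pmaip1 was below Bbc3 in 186wt (3.49 against 3.84 FPKM). Of the guardian-type Bcl2a1 genes, Bcl2a1a and Bcl2a1c were listed at 0 in all 12 libraries, and Bcl2a1d averaged 0.172 FPKM. These copies are nearly identical, so the division of reads among them is uncertain.

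Both cytochrome c genes were measured. The testis form Cyct had 12.8 FPKM in 186wt, 11.75 in 343wt, 19.6 in 444wt and 16.7 in 456wt, a difference of 0.74 ± 0.081 (log2, SE; limma adjusted p = 3.34e-05), while the somatic form Cycs was highest in 343wt (63.4 FPKM) and lowest in 456wt (34.2 FPKM). Early meiotic markers were highest in 444wt, 8 of 8 genes, as were spermatogonial markers, 8 of 9 genes. Sertoli cell sums were highest in 343wt, as Cycs was, but lowest in 444wt, where Cycs was not. The part of these cells in the cytochrome c values was not tested.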
